A study of Mus musculus with 12 samples.

Results

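Trp53, the gene of the p53 protein, and 9 stress-responsive genes that p53 is known to activate (Cdkn1a, Mdm2, Ccng1, Sesn2, Gdf15, Trp53inp1, Phlda3, Zmat3 and Eda2r) were read from a table of RNA sequencing counts. The members were chosen by gene symbol, and all 10 were among the 23282 lines of the table. All 10 also passed the filter on low counts that left 13464 genes for testing. The RNA came from 12 MC38 tumors, 3 in each of 4 groups, and the study asked whether SFIH adds to the effect of an anti-PD-1 antibody. The MC38 line comes from a mouse colon carcinoma and was grown under the skin of female C57BL/6 mice that were 6 weeks old at the start and are labelled as wild type. The Con group received saline vehicle and an IgG2a control antibody. The SFIH group received 50 mg/kg each day, by intraperitoneal injection, of SFIH, an extract of Inula helenium enriched in sesquiterpene lactones, chiefly alantolactone and isoalantolactone. The PD group received 200 μg of anti-PD-1 antibody per injection, 2 injections a week, and the Comb group received both agents. All samples were labelled day 19 and carried the same transplanted line. The labels number the samples of a group from 1 to 3 without saying that each came from its own animal, so p-values measure the spread between these samples.

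p53 is a transcription factor that is held at a low level by Mdm2, a ubiquitin ligase and itself a p53 target, and that accumulates when DNA is damaged or growth is disturbed. Much of its control acts on the protein, so the Trp53 transcript and the transcripts of its targets need not move together. Its targets halt the cell cycle (Cdkn1a, which encodes the inhibitor p21), restrain growth signalling (Sesn2, Phlda3), feed back on p53 (Mdm2, Ccng1), regulate RNA (Zmat3), favour autophagy or cell death (Trp53inp1, Eda2r), or act on other tissues as a secreted factor (Gdf15). Sesn2 and Gdf15 are also known targets of ATF4, the factor of the integrated stress response. The MC38 line has been described as carrying missense changes in Trp53, and its alleles were not examined here.

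The sequences that p53 is known to bind are pairs of a 10-base half-site, and 4 promoter windows are shown because they are the member windows that hold one. Windows of 300 bases, from 250 before to 50 after a transcription start, were taken from RefSeq on GRCm38.p6. In all, 10 windows matched 8 of the 10 members, with 2 each for Cdkn1a and Gdf15, and none was matched for Trp53inp1 and Zmat3. Each window is written 5′ to 3′ along its gene, and capitals mark the half-site. The Cdkn1a window is chr17:29090729-29091028 on the + strand, the Mdm2 window is chr10:117710709-117711008 on the − strand, the Ccng1 window is chr11:40755237-40755536 on the − strand and the Trp53 window is chr11:69580109-69580408 on the + strand.
Cdkn1a: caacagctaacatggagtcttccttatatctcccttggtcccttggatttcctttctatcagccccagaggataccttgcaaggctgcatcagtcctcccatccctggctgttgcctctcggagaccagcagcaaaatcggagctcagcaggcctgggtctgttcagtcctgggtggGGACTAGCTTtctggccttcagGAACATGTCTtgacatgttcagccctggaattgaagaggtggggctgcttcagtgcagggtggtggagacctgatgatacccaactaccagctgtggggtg
Mdm2: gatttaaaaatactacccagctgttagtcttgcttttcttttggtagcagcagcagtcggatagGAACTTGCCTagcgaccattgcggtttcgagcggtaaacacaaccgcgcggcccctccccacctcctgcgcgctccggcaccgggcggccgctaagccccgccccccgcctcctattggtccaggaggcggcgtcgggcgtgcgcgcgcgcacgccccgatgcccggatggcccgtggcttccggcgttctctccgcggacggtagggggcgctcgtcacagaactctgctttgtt
Ccng1: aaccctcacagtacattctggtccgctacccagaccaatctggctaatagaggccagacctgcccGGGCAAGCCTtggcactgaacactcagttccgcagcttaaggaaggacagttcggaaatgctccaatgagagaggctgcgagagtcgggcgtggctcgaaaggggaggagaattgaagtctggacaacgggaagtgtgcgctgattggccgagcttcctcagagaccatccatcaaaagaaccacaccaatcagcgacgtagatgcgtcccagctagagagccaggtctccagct
Trp53: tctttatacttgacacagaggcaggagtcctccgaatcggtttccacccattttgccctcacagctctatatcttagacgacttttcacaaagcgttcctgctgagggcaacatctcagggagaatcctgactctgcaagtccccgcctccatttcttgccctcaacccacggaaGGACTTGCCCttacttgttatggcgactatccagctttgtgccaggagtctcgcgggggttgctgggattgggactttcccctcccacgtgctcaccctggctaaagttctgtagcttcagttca
The half-site, searched on both strands, was present in 4 of the 10 member windows and in 8.36% of all 32851 windows of this length. The Cdkn1a window shown held 2 half-sites with 12 bases between them, at 73 and 51 bases before its start. The other Cdkn1a window, chr17:29093519-29093818 on the + strand, held none. A pair of half-sites no more than 13 bases apart was present in 0.0731% of all windows and in 1 of the 10 member windows. The ATF4 element known as CARE was found in 0 of the 10 member windows and in 3.95% of all windows. A match is a description of the letters and not a bound site, and the search covered these windows only.

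Between 7870741 and 12261032 counts were available per tumor, so that 3 counts corresponded to 0.245 to 0.381 CPM, where CPM is a count divided by the total of its library and multiplied by 1000000. The ribosomal RNA gene Rn45s took 4.28% to 17.1% of the counts. The tumor Comb replicate 3 stood apart from the others. Its counts differed from those of the other Comb tumors with a chi-square of 277 and 388 per degree of freedom, against 11.4 to 62.1 in all other pairs of replicates, and its TMM factor was the lowest, at 0.760. Summed over 6 skeletal muscle markers it held 4290 CPM, against 2.41 to 562 in the other 11 tumors. Several values below are also given without it. The RNA was extracted from whole tumor tissue, although the labels read tumor cells. Markers of colon epithelium (7 genes) summed to 66.4 CPM in Comb replicate 3 and to 4.50 to 18.5 CPM in the other 11 tumors. Cdx2 had at most 1 count in any tumor and Epcam 0 to 3 counts in the Con tumors. Cdh1 had 16 to 157 counts over all tumors, and Epcam, Krt8 and Krt18 had 85, 255 and 219 counts in Comb replicate 3. In such bulk samples, fewer cells of a type and less RNA per cell cannot be told apart.

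No member passed an adjusted p of 0.05 in any of the 8 comparisons made by edgeR's quasi-likelihood test with Benjamini-Hochberg adjustment over 13464 genes, and neither did any other gene (0% in each comparison). By DESeq2 the members also gave 0 calls in each of the 8 comparisons. Of 19008 genes with a p-value, that tool called from 1 (interaction) to 2056 (Comb against Con). At an unadjusted p under 0.05, 0 to 2 members passed in each comparison. The members are therefore described by their values in every tumor. Levels are in CPM, each given in the order of replicates 1, 2 and 3. Levels of different genes were not compared, since counts at the 3′ end are not counts per length.

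Trp53 itself was highest in the SFIH group, where one tumor stood out. Its level was 15.5, 27.8 and 26.8 CPM in Con, 59.5, 36.5 and 23.4 CPM in SFIH, 26.1, 22.0 and 22.1 CPM in PD, and 33.6, 16.8 and 10.1 CPM in Comb. The highest value, in SFIH replicate 1, was 5.89 times the lowest, in Comb replicate 3. On the log2(CPM + 1) scale the groups ranked SFIH (5.25 ± 0.65, SD, n = 3), PD (4.60 ± 0.14), Con (4.56 ± 0.45) and Comb (4.25 ± 0.82), and all neighbours in this order overlapped. Between SFIH and Con the log2 fold change was 0.74 (SE 0.37, edgeR adjusted p = 0.9998, unadjusted p = 0.0720), and without SFIH replicate 1 it was 0.37. Between Comb and SFIH it was -0.75 (SE 0.37, edgeR adjusted p = 0.305). The latter was -0.38 without SFIH replicate 1. Without Comb replicate 1 it was -1.17 with an edgeR adjusted p of 0.0454, and over all alternatives this adjusted p ranged from 0.0454 to 0.650. In the fit without Comb replicate 1, 3084 of all 13856 genes tested passed an adjusted p of 0.05 between Comb and SFIH.

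Mdm2, the ubiquitin ligase that limits p53, had the narrowest range of the members. It stood at 52.6, 60.2 and 54.6 CPM in Con, 44.9, 51.6 and 42.4 CPM in SFIH, 53.4, 46.6 and 52.9 CPM in PD, and 43.0, 39.4 and 49.9 CPM in Comb. All 3 SFIH tumors and all 3 Comb tumors lay below every Con tumor. The highest level was only 1.53 times the lowest. The log2 fold change was -0.28 (SE 0.19, edgeR adjusted p = 0.9998) between SFIH and Con. Between Comb and Con it was -0.04, smaller than its SE of 0.19. TMM scaling raised the level in Comb replicate 3 from 49.9 to 65.9 CPM, and the log2 fold change was -0.27 without that tumor and -0.34 with no TMM scaling.

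Ccng1 encodes cyclin G1, a p53 target that takes part in the feedback on Mdm2. Its level was 57.7, 47.0 and 59.0 CPM in Con, 62.1, 57.5 and 44.5 CPM in SFIH, 35.6, 41.9 and 45.8 CPM in PD, and 50.7, 47.7 and 165 CPM in Comb. The PD tumors lay below all Con tumors and below all Comb tumors, and the high Comb mean came from 1 tumor, Comb replicate 3. The log2 fold change of Comb was 1.07 against Con (SE 0.47, unadjusted p = 0.0432, edgeR adjusted p = 0.185), 1.37 against PD (SE 0.47, unadjusted p = 0.0140, edgeR adjusted p = 0.249) and 1.08 against SFIH (SE 0.47, unadjusted p = 0.0416, edgeR adjusted p = 0.247). These were 0.02, 0.33 and 0.03 without Comb replicate 3. Without Comb replicate 1 they were 1.41, 1.73 and 1.43, with edgeR adjusted p of 0.0324, 0.0301 and 0.0377. Over all alternatives the edgeR adjusted p between Comb and Con ranged from 0.0324 to 0.965, against PD from 0.0301 to 0.657 and against SFIH from 0.0377 to 0.975.

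Cdkn1a, which encodes the cell cycle inhibitor p21, was highest in Con. It stood at 139, 145 and 119 CPM in Con, 83.4, 93.8 and 132 CPM in SFIH, 113, 156 and 95.2 CPM in PD, and 111, 43.7 and 96.6 CPM in Comb. All 3 Comb tumors lay below the Con tumors, with Comb replicate 2 lowest of all 12, while the other groups overlapped with Con. Between Comb and Con the log2 fold change was -0.40 (SE 0.36, edgeR adjusted p = 0.477), and between SFIH and Con -0.37 (SE 0.36, edgeR adjusted p = 0.9998). The first was -0.11 without Comb replicate 2 and -0.67 without Comb replicate 3, and the second was -0.22 without SFIH replicate 1 and -0.67 without SFIH replicate 3. With TMM-scaled library sizes the Comb and Con tumors overlapped.

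**Figure D1:**
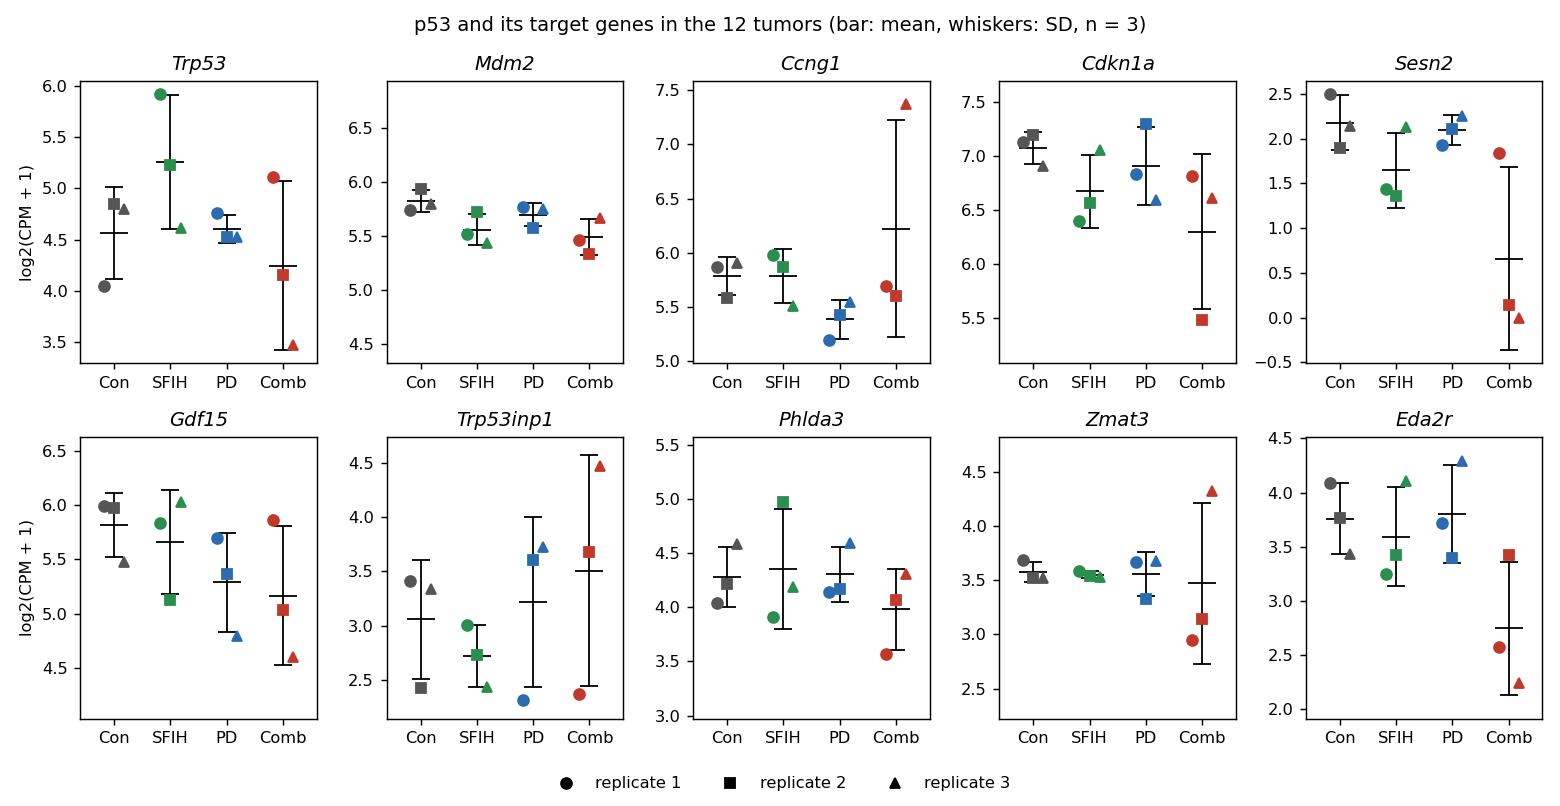
Level of each of the 10 members as log2(CPM + 1) in the 12 tumors, by group (Con, SFIH, PD, Comb). Points are tumors with the shape giving the replicate, bars are group means and whiskers the SD (n = 3). Comb replicate 3 is the highest point for Ccng1 (165 CPM), Trp53inp1 (21.2 CPM) and Zmat3 (18.9 CPM) and the lowest for Trp53 (10.1 CPM), and 2 Comb tumors lie near 0 for Sesn2.

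Sesn2 encodes sestrin 2, a stress-induced protein that restrains mTORC1 signalling, and it was the least counted member. It stood at 4.65, 2.71 and 3.39 CPM in Con, 1.71, 1.57 and 3.38 CPM in SFIH, 2.80, 3.30 and 3.77 CPM in PD, and 2.58, 0.102 and 0 CPM in Comb. The Comb tumors held 26, 1 and 0 counts, so 2 of them lay under the 3 counts taken as the detection floor, and all 3 lay below the Con and the PD tumors. The Comb mean was 0.249 times the Con mean. The log2 fold change was -1.88 against Con (SE 1.0, edgeR adjusted p = 0.261), -1.85 against PD (SE 1.01, edgeR adjusted p = 0.334) and -1.21 against SFIH (SE 1.0, edgeR adjusted p = 0.506). Without Comb replicate 1, which left 1 count in the Comb group, the edgeR adjusted p was 0.00410 against Con, 0.0243 against PD, 0.00818 against SFIH, 0.0467 between tumors with and without SFIH and 0.0136 between tumors with and without the antibody. In that fit 3903, 2062, 3084, 236 and 2340 of all 13856 genes tested passed an adjusted p of 0.05 in the same order. The fitted log2 fold change against Con was then -5.58, a value that depends on the prior count and is no bound. Without Comb replicate 3 it was -1.32 (edgeR adjusted p = 0.391), and the log2 fold change was then -1.28 against PD and -0.63 against SFIH. Over all alternatives the adjusted p against Con ranged from 0.00410 to 0.523, against PD up to 0.667, against SFIH up to 0.817, with and without SFIH up to 0.592 and with and without the antibody up to 0.839. Intervals and floors of this kind cover counting error only.

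Gdf15, a secreted member of the TGF-β family that acts on appetite through a brainstem receptor, showed no group apart. Its level was 62.8, 62.0 and 43.6 CPM in Con, 55.9, 33.8 and 64.5 CPM in SFIH, 51.0, 40.1 and 26.8 CPM in PD, and 57.1, 31.7 and 23.2 CPM in Comb. All groups overlapped. The log2 fold change was -0.42 in PD (SE 0.35, edgeR adjusted p = 0.9998) and -0.38 in Comb (SE 0.35, edgeR adjusted p = 0.496), both against Con. The first was -0.19 without PD replicate 3 and -0.63 without PD replicate 1, and the second was -0.21 without Comb replicate 3 and -0.67 without Comb replicate 1.

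Trp53inp1 encodes a stress protein of autophagy and cell death. It stood at 9.67, 4.37 and 9.08 CPM in Con, 7.01, 5.61 and 4.40 CPM in SFIH, 3.98, 11.2 and 12.2 CPM in PD, and 4.16, 11.8 and 21.2 CPM in Comb. Tumors of 1 group differed as much as tumors of different groups, and the pooled SD within groups (0.73 on the log2 scale) was above that over all 12 tumors (0.69). Between Comb and SFIH the log2 fold change was 1.52 (SE 0.63, unadjusted p = 0.0341, edgeR adjusted p = 0.227), and without Comb replicate 3 it was 0.72. Between Comb and Con it was 1.07 (SE 0.62, edgeR adjusted p = 0.295), and without Comb replicate 3 it was 0.26. Without Comb replicate 1 the edgeR adjusted p was 0.0237 against SFIH, 0.0480 against Con and 0.0450 between tumors with and without the antibody, in ranges over all alternatives of 0.0237 to 0.684, 0.0480 to 0.839 and 0.0450 to 0.469. In the fit without that tumor 3084, 3903 and 2340 of all 13856 genes tested passed an adjusted p of 0.05 in the same order.

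Eda2r encodes a receptor of the TNF receptor family that binds ectodysplasin A2. Its level was 16.0, 12.6 and 9.78 CPM in Con, 8.48, 9.73 and 16.3 CPM in SFIH, 12.2, 9.53 and 18.6 CPM in PD, and 4.95, 9.75 and 3.73 CPM in Comb. The highest Comb tumor, at 9.75 CPM, lay just under the lowest Con tumor, at 9.78 CPM, and Comb overlapped with SFIH and PD. The log2 fold change of Comb was -0.80 against Con (SE 0.43, edgeR adjusted p = 0.262), -0.95 against PD (SE 0.43, unadjusted p = 0.0493, edgeR adjusted p = 0.278) and -0.66 against SFIH (SE 0.43, edgeR adjusted p = 0.416). These were, with Comb replicate 3 left out, -0.61, -0.76 and -0.46. Comb replicate 2 was the highest of the Comb tumors, and without it they were -1.31, -1.46 and -1.17. The value against SFIH was -0.25 without SFIH replicate 3.

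Phlda3, which encodes a repressor of Akt signalling, and Zmat3, which encodes an RNA-binding zinc finger protein, had no log2 fold change above its SE in a comparison with Con by SFIH or PD. Phlda3 stood at 15.4, 17.6 and 22.9 CPM in Con, 14.0, 30.4 and 17.2 CPM in SFIH, 16.7, 17.0 and 23.1 CPM in PD, and 10.9, 15.8 and 18.8 CPM in Comb. Zmat3 stood at 11.9, 10.5 and 10.5 CPM in Con, 11.0, 10.6 and 10.5 CPM in SFIH, 11.7, 9.02 and 11.8 CPM in PD, and 6.74, 7.82 and 18.9 CPM in Comb. Zmat3 was thus nearly level over the 3 SFIH tumors (SD 0.03 on the log2 scale) and most spread in Comb (SD 0.74), where 2 tumors were the lowest and 1 the highest of all 12. Its log2 fold change between Comb and SFIH was 0.42 (SE 0.41) with all tumors and -0.38 without Comb replicate 3.

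SFIH alone was compared with Con to see what the fraction did without antibody. At an unadjusted p under 0.05, 0 of 10 members passed, against 2.21% of all genes tested. One member, Mdm2, had no overlap between the groups and was lower in SFIH, where 16.4% of all genes had no overlap. The median log2 fold change over the 10 members was -0.13, beside 0.02 over all genes, and 2 of the 10 values were above 0. Without Comb replicate 3, a tumor of neither group, 2 of 10 members passed, against 7.51% of all genes. Trp53 (0.75) and Mdm2 (-0.28) then had unadjusted p of 0.0349 and 0.0417, with edgeR adjusted p of 0.614 and 0.639, in ranges over all alternatives of 0.458 to 1 and 0.441 to 1.

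The antibody alone was compared with Con in the same way. In PD, 0 of 10 members passed the unadjusted p, against 3.94% of all genes. Ccng1 was the 1 member without overlap, lower in PD, where 20.6% of all genes had none, and its log2 fold change of -0.31 was smaller than its SE of 0.46. The median over the members was 0.02, beside 0.01 over all genes. Gdf15 was the 1 member with a log2 fold change above its SE in PD.

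The combination was compared with Con and with each single agent to see what the second agent added. Against Con, 1 of 10 members (Ccng1, higher) passed the unadjusted p, against 25.1% of all genes. Against PD, 2 of 10 passed (Ccng1 higher, Eda2r lower), against 17.8% of all genes, and against SFIH 2 of 10 (Ccng1 and Trp53inp1, both higher), against 18.8%. The members' share thus lay below that of all genes against Con and near it against the single agents. The count without Comb replicate 3 was 0 in all 3 comparisons, against 18.7%, 8.86% and 10.5% of all genes. With no TMM scaling, which moved the median of all genes to -0.29 against Con, the member past the unadjusted p against Con was Eda2r (-1.06) in place of Ccng1 (0.69).

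Tumors of the Comb and Con groups did not overlap for 4 of 10 members, all lower in Comb (Cdkn1a, Eda2r, Mdm2 and Sesn2), where 29.8% of all genes had no overlap. With TMM-scaled library sizes only Sesn2 of these 4 remained apart, and the share of all genes without overlap was not computed at that scaling. Between Comb and PD, 2 of 10 did not overlap (Ccng1 above, Sesn2 below), where 12.7% of all genes had no overlap, and between Comb and SFIH 0 of 10, where 19.5% had none. The smallest exact permutation p of 3 against 3 tumors is 0.1, which these members reached, so a threshold of 0.05 could not be met for single values. The median log2 fold change over the 10 members was -0.03 against Con, -0.05 against PD and -0.07 against SFIH, beside -0.03, -0.003 and -0.05 over all genes. With Comb replicate 3 left out it was -0.28, -0.33 and -0.34 over the members, beside -0.01, 0.02 and -0.02 over all genes, and 3 of 10 values were above 0 in each.

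**Figure D2:**
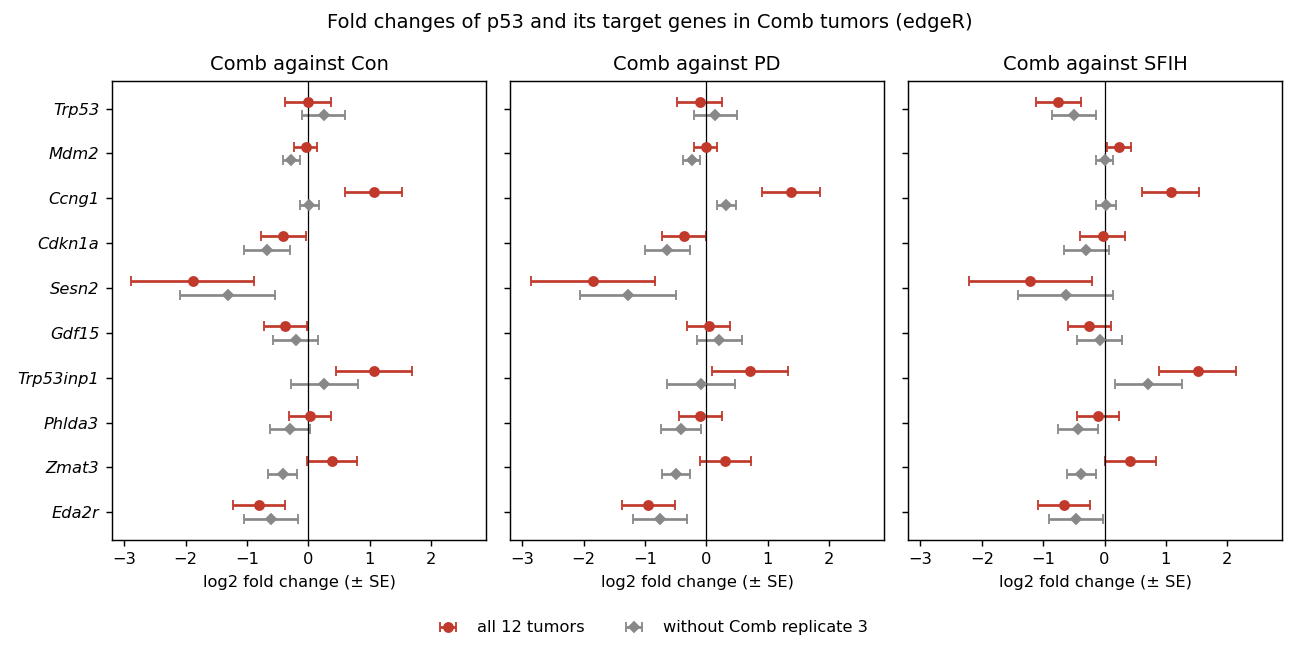
Log2 fold change of each member in Comb against Con, PD and SFIH, with bars of 1 SE, from edgeR fits with all 12 tumors (red circles) and without Comb replicate 3 (grey diamonds). Ccng1 moves from 1.07 to 0.02 against Con when that tumor is left out, Zmat3 moves across 0 in all 3 comparisons, and Sesn2 and Eda2r stay below 0.

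The 2 agents were also read as factors, with 6 tumors that received an agent set against 6 that did not. For the antibody, 0 of 10 members passed the unadjusted p, against 18.6% of all genes. For SFIH, 0 of 10 passed, against 14.2%, and for the interaction, the difference between the effect of both agents and the sum of single effects, 0 of 10, against 2.48%. Without Comb replicate 1 it was 3 of 10 for the antibody (against 34.2% of all genes), 2 of 10 for SFIH (against 29.2%) and 4 of 10 for the interaction (against 17.1%). Sesn2 and Trp53inp1 then passed the adjusted p for the antibody, and Sesn2 for SFIH, where 2340 and 236 of all 13856 genes tested passed it. The exact permutation test of log2(CPM + 1), with divisions made within the other treatment (400 divisions, two-sided), gave p = 0.0150 for Sesn2 and 0.0200 for Mdm2 between tumors with and without SFIH. Sesn2 was lower by 0.98 on the log2 scale in tumors with SFIH, and Mdm2 by 0.24, and for both genes the 6 tumors with SFIH overlapped with the 6 without. These 2 of 10 members stood beside 14.6% of all genes that passed 0.05 in the same exact test, and for the antibody it was 0 of 10 members, beside 24.6%. The 20 tests on members were not adjusted. Cdkn1a was lower by 0.50 (exact p = 0.0550, and 0.0411 over all divisions of 6 against 6) and Eda2r by 0.61 (exact p = 0.0900). In the edgeR fit, which scales by TMM, the SFIH effects were -1.26 for Sesn2 (SE 0.69, edgeR adjusted p = 0.400) and -0.14 for Mdm2 (SE 0.13, edgeR adjusted p = 0.598). The interaction of Ccng1 was 1.38 (SE 0.66, edgeR adjusted p = 0.897), and without Comb replicate 3 it was 0.34.

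Whether the Trp53 transcript varied with its targets was examined over the 12 tumors with 9 relations on the log2(CPM + 1) scale. Trp53inp1 had the largest r in size and it was inverse, with Pearson's r of -0.65 (permutation p = 0.0202, adjusted p = 0.182 by Benjamini-Hochberg) and Spearman's rho of -0.68 (permutation p = 0.0187, adjusted p = 0.168). Without the 2 tumors farthest from the median of Trp53, Comb replicate 3 and SFIH replicate 1, r was -0.65 (permutation p = 0.0453, adjusted p = 0.408), and on deviations from the group means it was -0.56 (permutation p = 0.0568, adjusted p = 0.256). On those deviations Zmat3 had the larger r, -0.61 (permutation p = 0.0316, adjusted p = 0.256). For Trp53inp1 without Comb replicate 3 alone r was -0.45 (permutation p = 0.168), and without SFIH replicate 1 alone it was -0.80 (permutation p = 0.00252, adjusted p = 0.0227), and over all alternatives this adjusted p ranged from 0.0227 to 0.755. The other 8 targets had r between -0.44 (Zmat3) and 0.46 (Gdf15), with adjusted p of 0.409 or more. For Cdkn1a r was 0.03 and rho -0.20, and for Mdm2 r was -0.03 and rho 0.11. When Comb replicate 3 was left out, r was 0.01 for Zmat3, 0.18 for Gdf15, 0.38 for Ccng1 (-0.42 with it), -0.09 for Sesn2 (0.33 with it) and -0.51 for Eda2r (0.08 with it), with adjusted p of 0.755 or more. With TMM-scaled library sizes r of Mdm2 was -0.65 (permutation p = 0.0227, adjusted p = 0.102).

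The genes with the most similar pattern over the 12 tumors were named by Spearman's rho of TMM-scaled log2 CPM. For Trp53 these were Atxn2l (0.97), Ubqln1 (0.96), Wrnip1 (0.96), 1200014J11Rik (0.94) and Dpf2 (0.94), and none was a member. For Cdkn1a they were Tpm2 (0.95), Hk1os (0.86), Ahcyl2 (0.86), Yme1l1 (0.84) and Ppargc1b (0.82). Among members, Gdf15 ranked highest for Cdkn1a, with a rho of 0.57 and rank 379 of the genes tested. Without Comb replicate 3, Atxn2l, Ubqln1 and Wrnip1 stayed among the 5 nearest to Trp53, and Tpm2 among the 5 nearest to Cdkn1a. These are descriptions over 12 libraries that share the same scaling.

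A wider list of 40 p53 targets was read beside the members. Of its 38 tested genes, 18 passed the unadjusted p between Comb and Con (47.4%, against 25.1% of all genes), 14 higher and 4 lower, and none passed the adjusted p. Among the genes that passed the unadjusted p, 77.8% of the targets and 71.4% of all genes were higher. Fas, a death receptor that lymphocytes also carry, was at 3.65, 4.16 and 3.89 CPM in Con and 7.03, 7.42 and 18.2 CPM in Comb, a log2 fold change of 1.83 (SE 0.44, edgeR adjusted p = 0.0698). Bax, which opens the mitochondrial outer membrane in apoptosis, was at 11.8, 10.6 and 9.18 CPM in Con and 16.1, 13.3 and 18.9 CPM in Comb (0.91, SE 0.27, edgeR adjusted p = 0.0820). In both genes every Comb tumor lay above every Con tumor. Perp, a desmosomal protein of epithelia, had 61.7 CPM in Comb replicate 3 and at most 4.73 CPM in the other 11 tumors, and its log2 fold change of 6.94 was 2.08 without that tumor.

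Among the 4 that were lower, Polh, a DNA polymerase that copies past ultraviolet damage, was at 3.38, 2.70 and 4.59 CPM in Con and 0.198, 0.711 and 0 CPM in Comb (log2 fold change -3.28, SE 0.79, edgeR adjusted p = 0.0698). Tigar, a regulator of glycolysis, had a log2 fold change of -0.81 (SE 0.28, edgeR adjusted p = 0.111), and Gadd45a, a growth arrest gene, one of -0.74 (SE 0.29, edgeR adjusted p = 0.151). Among the 38 targets, 9 passed without Comb replicate 3 (23.7%, against 18.7% of all genes), 5 higher and 4 lower, and Fas (1.06), Bax (0.64), Polh (-2.74), Tigar (-0.57) and Gadd45a (-0.69) were among them. With no TMM scaling 8 of 38 were higher and 6 lower, where 25% of all genes passed. Among the genes that passed at that scaling, 57.1% of the targets and 47.1% of all genes were higher. In SFIH alone 1 of 38 passed (2.63%, against 2.21% of all genes), Steap3, lower, at 95.8, 101 and 77.4 CPM in Con and 53.7, 54.2 and 48.3 CPM in SFIH (log2 fold change -0.82, SE 0.25, edgeR adjusted p = 0.9998). Against PD, 9 of 38 targets passed in Comb (23.7%, against 17.8% of all genes), and against SFIH 8 of 38 (21.1%, against 18.8%). When Comb replicate 3 was left out it was 3 of 38 in each (7.89%, against 8.86% and 10.5% of all genes). In PD alone 4 of 38 passed (10.5%, against 3.94% of all genes), with Ei24 higher (0.39) and Gadd45a (-0.74), Tigar (-0.62) and Fdxr (-0.62) lower. That count was also 4 of 38 when Comb replicate 3 was left out, against 10.4% of all genes.

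Regulators of p53 itself were read in the same way. Of 20 tested, 3 passed the unadjusted p between Comb and Con, against 25.1% of all genes, with Cdkn2a higher (2.20, SE 0.77, edgeR adjusted p = 0.117) and Trp53bp2 (-1.12, SE 0.34, edgeR adjusted p = 0.0870) and Ppp1r13l (-0.75, SE 0.31, edgeR adjusted p = 0.164) lower. Cdkn2a encodes an inhibitor of Mdm2, and Trp53bp2 and Ppp1r13l encode ASPP proteins that bind p53. Cdkn2a was at 1.64, 3.02 and 1.995 CPM in Con and 1.49, 5.59 and 16.0 CPM in Comb, so Comb replicate 1 lay below every Con tumor. Only Trp53bp2 of the 20 passed when Comb replicate 3 was left out (-0.78, unadjusted p = 0.00572), against 18.7% of all genes, and Cdkn2a was then at 0.89. In SFIH alone 0 of 20 passed, against 2.21% of all genes, and without Comb replicate 3 it was 3 of 20, all lower, against 7.51%. In PD alone 0 of 20 passed in either fit, against 3.94% and 10.4%. Between Comb and PD 4 of 20 passed (2 higher, 2 lower), against 17.8% of all genes. Between Comb and SFIH 2 of 20 passed, both higher (10%, against 18.8% of all genes). Between tumors with and without the antibody 3 of 20 passed, all higher (15%, against 18.6%). These were Hipk2 (0.54), Ep300 (0.27) and Cdkn2a (1.27). Between the tumors with and without SFIH 7 of 20 passed, 1 higher and 6 lower (35% against 14.2% of all genes), and none passed the adjusted p. The one that was higher was Rpl11 (0.31), a ribosomal protein that binds Mdm2. Of the 6 that were lower, those with the lowest p were Trp53bp2 (-0.79), the acetyltransferase Ep300 (-0.28) and Usp7 (-0.52), a deubiquitinase of Mdm2 and p53.

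The integrated stress response, which shares Sesn2 and Gdf15 with p53, had most of its values below 0 in Comb and in PD, both against Con. Of 19 tested genes 3 passed the unadjusted p between Comb and Con (15.8%, against 25.1% of all genes), all lower, and 1 of 19 values was above 0, with a median log2 fold change of -0.77, also 1 of 19 with no TMM scaling. Over all genes 6469 of 13464 values were above 0, with a median of -0.03, and 4697 with no TMM scaling. Ddit4, an mTORC1 inhibitor that is also induced by hypoxia and by p53, was at 589, 516 and 599 CPM in Con, 256, 293 and 335 CPM in SFIH, 274, 276 and 279 CPM in PD and 189, 69.8 and 27.0 CPM in Comb. Every treated tumor lay below every Con tumor, and the log2 fold change in Comb was -2.41 (SE 0.46, edgeR adjusted p = 0.0698). Vldlr (-1.44, SE 0.42, edgeR adjusted p = 0.0798), a lipoprotein receptor, and Slc7a11 (-1.25, SE 0.48, edgeR adjusted p = 0.145), a cystine transporter, were the others. Without Comb replicate 3, 4 of 19 passed, all lower, with a median of -0.28, against 18.7% of all genes. In PD alone 1 of 19 values was above 0, with a median of -0.35, beside 6956 of 13464 and a median of 0.01 over all genes. There 1 of 19 passed (5.26%, against 3.94% of all genes), Cebpb, a transcription factor, lower (-0.52, SE 0.23, edgeR adjusted p = 0.9998). When Comb replicate 3 was left out, 6 of 19 passed in PD, all lower (31.6%, against 10.4% of all genes). In SFIH alone 0 of 19 passed, against 2.21% of all genes, and without that tumor 2 of 19, both lower, against 7.51%. Between Comb and PD the median was -0.22 with 4 of 19 values above 0, and without that tumor 0.11 with 11 of 19 above 0.

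Cell cycle genes that p21 is known to repress showed no gene past the unadjusted p in any of the 8 comparisons by edgeR, where 2.21% to 25.1% of all genes passed, and none past the adjusted p. In Comb against Con, 1 of 30 had a value above 0, with a median of -0.53 beside a median SE of 0.62 and a median of -0.03 over all genes. In PD and in SFIH, both against Con with TMM scaling, 24 and 17 of 30 were above 0, with medians of 0.10 and 0.06. With no TMM scaling 0 of 30 values were above 0 in Comb against Con. Without Comb replicate 3 the median against Con was -0.05, 13 of 30 values were above 0, and 3 of 30 passed the unadjusted p (10%, against 18.7% of all genes), 1 higher and 2 lower. By DESeq2 1 of 30 passed in Comb against PD (3.33%, against 17% of all genes) and 0 of 30 in the other comparisons of groups, where 2.39% to 22.5% of all genes passed.

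**Figure D3:**
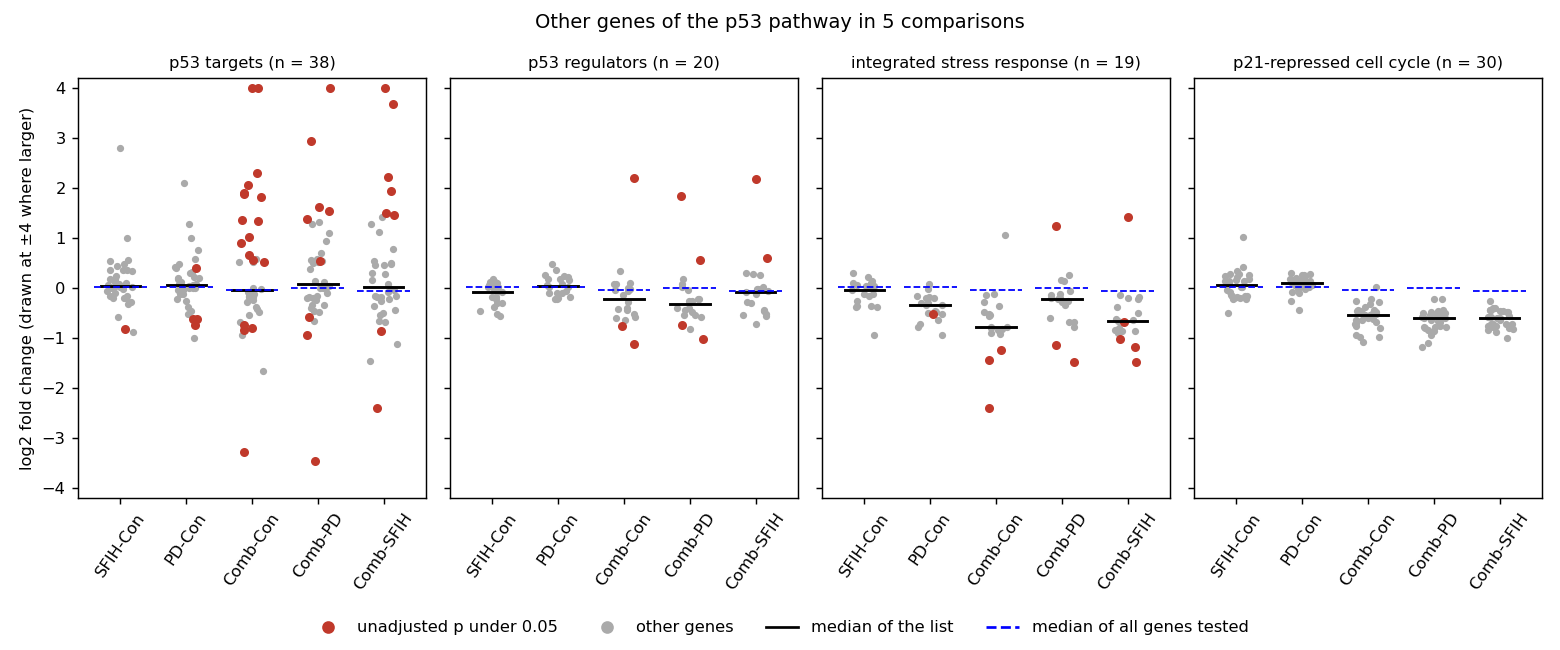
Log2 fold change (edgeR) of every tested gene in 4 lists around p53, in 5 comparisons, with values beyond 4 drawn at 4. Red points passed an unadjusted p of 0.05, black lines are list medians and dashed blue lines the median of all genes tested. Red points are most frequent for p53 targets in Comb against Con (18 of 38), and none of the cell cycle points is red, with 1 of 30 above 0 in Comb against Con.

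Markers of other cells moved with the Comb tumors in which members were extreme, and their part in the members' values was not tested. Skeletal muscle markers, all 6 of 6 in the table, summed to 4.58 to 10.1 CPM in Con, 6.19 to 41.8 CPM in SFIH, 2.41 to 117 CPM in PD, and 562, 4.37 and 4290 CPM in Comb replicates 1, 2 and 3. Macrophage markers, 6 of 6, summed to 325 to 583 CPM in Con, 566 to 636 CPM in SFIH, 574 to 1113 CPM in PD, and 680, 2052 and 6169 CPM in Comb. Comb replicate 3 was thus highest for both lists, and it was the tumor in which Ccng1, Trp53inp1 and Zmat3 were highest and Trp53 was lowest. In Comb replicate 2, where Sesn2 and Cdkn1a were low, muscle markers were at the level of the Con tumors and macrophage markers were above all Con, SFIH and PD tumors.

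T cell markers, 5 of 6 in the table, ranged from 17.8 to 28.8 CPM in Con and from 17.7 to 30.6 CPM in SFIH. They were at 27.5 to 68.7 CPM in PD and 23.4 to 198 CPM in Comb. Fibroblast markers, 4 of 4, ranged from 1319 to 1900 CPM in Con and from 723 to 2608 CPM in SFIH, and were at 2675 to 4572 CPM in PD and 2132 to 10755 CPM in Comb. Adipocyte markers (4 of 4) reached 829 CPM and keratinocyte markers (4 of 4) 281 CPM in Comb replicate 3, against at most 276 and 26.8 CPM in the other tumors. Endothelial markers (3 of 3) stayed within 55.3 to 105 CPM over all 12 tumors and neutrophil markers (3 of 4) within 10.1 to 89.8 CPM. Erythroid markers (3 of 3) were at 60.0 to 1629 CPM and colon epithelium markers (7 of 7) at 4.50 to 66.4 CPM. Both were highest in Comb replicate 3, against at most 1307 and 18.5 CPM in the other tumors.

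**Figure D4:**
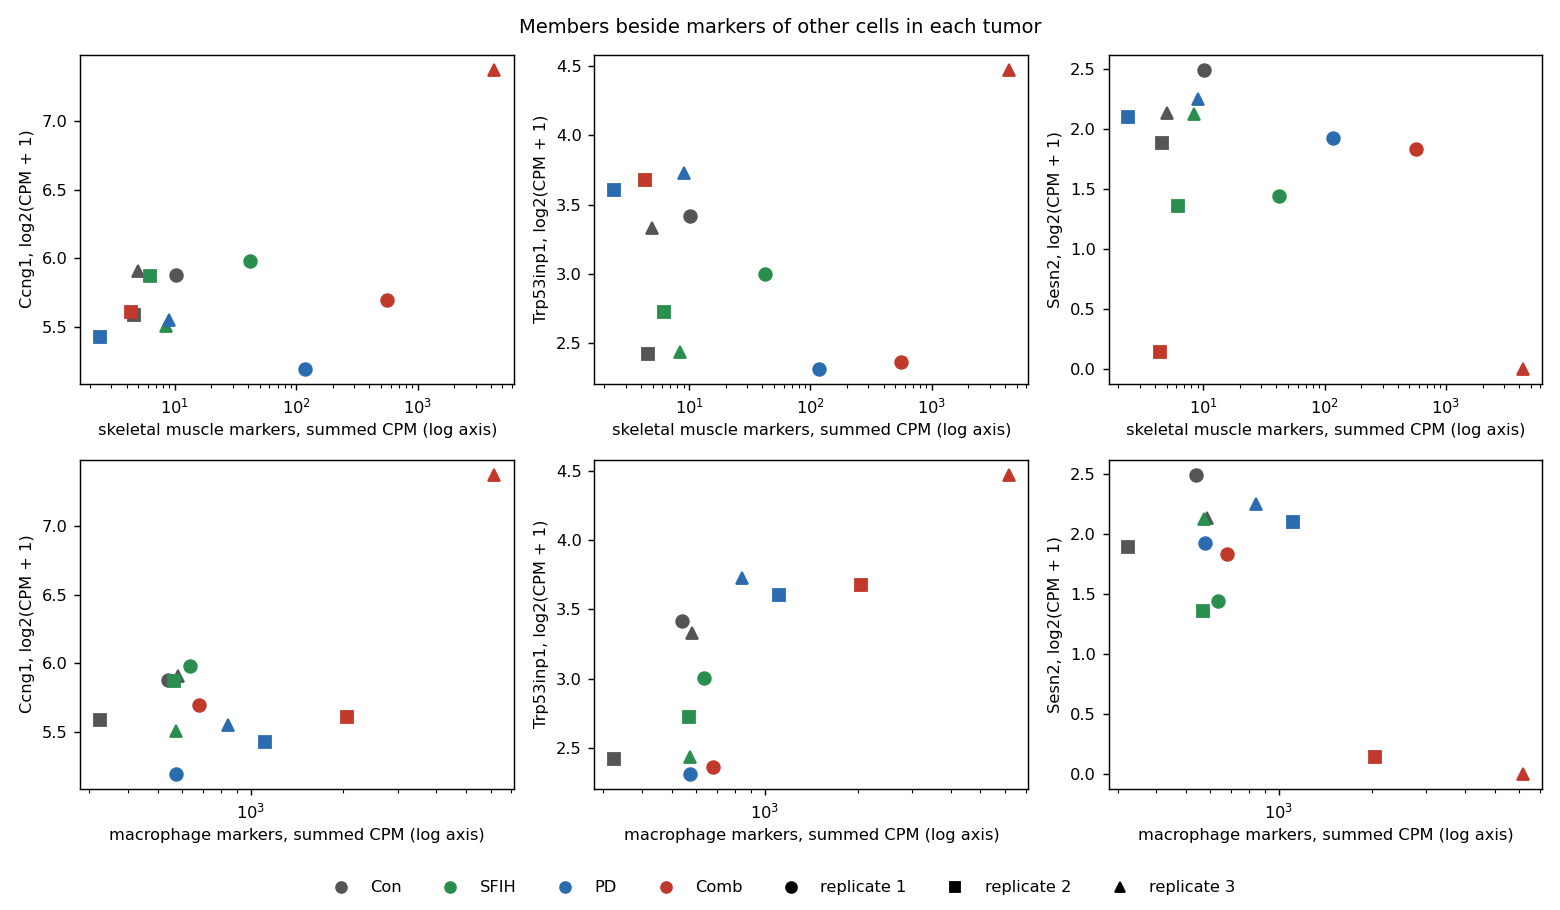
Level of Ccng1, Trp53inp1 and Sesn2 as log2(CPM + 1) against the summed CPM of skeletal muscle markers (top, log axis) and of macrophage markers (bottom, log axis) in each of the 12 tumors, colored by group and shaped by replicate. Comb replicate 3 lies at the far right in every panel, at 4290 CPM of muscle and 6169 CPM of macrophage markers, with Ccng1 at 165 CPM and Sesn2 at 0 counts.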

How the data were processed

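The authors extracted RNA from 12 tumors, made QuantSeq 3′ mRNA-Seq libraries, read them as single-end 75 bp reads and deposited raw counts per gene. The aligner, counter, annotation and genome build are not given in the sources used here. From the deposited counts, CPM were computed on total counts (7870741 to 12261032 per tumor). Genes were tested with edgeR 4.0.16 in R 4.3.3 (TMM, filterByExpr, robust quasi-likelihood, two-sided, 12 tumors in 1 fit, 8 contrasts) with Benjamini-Hochberg adjustment. The SE is the log2 fold change divided by the root of F, and the 37 fold changes larger than their SE were carried through the alternatives. Single values were compared by exact permutation tests, and correlations by permutation. Alternatives were DESeq2 1.42.0, other normalizations, filters and pseudocounts, fits on the compared groups only, a replicate block, and leaving out each tumor. The members, lists and tests were chosen with earlier results of these data known.

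Besides the members, the genes named were, per list, direction and comparison described, up to 3 with the lowest unadjusted p under 0.05, and the 5 nearest in pattern to Trp53 and to Cdkn1a. The lists were p53 targets, p53 regulators, the integrated stress response, cell cycle genes repressed through p21, and markers of T cells, macrophages, neutrophils, skeletal muscle, adipocytes, keratinocytes, fibroblasts, endothelium, erythroid cells and colon epithelium. Tumors of the same replicate number were not treated as pairs. Of 18 same-numbered pairs, 6 correlated above 0.1 (range -0.24 to 0.36), and pairs of different numbers ranged from -0.28 to 0.28. These values do not decide whether the numbers pair tumors.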

Additional observations from a re-analysis of the deposited data

How the results depend on the processing

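Of 684 alternative values of the 37 fold changes, 4 turned direction and 11 passed an adjusted p of 0.05; the causes were not tested. The 4 were Trp53inp1 in Comb against PD (-0.084 without Comb replicate 3, 0.72 with it, and up to 1.18 without another tumor), Zmat3 in Comb against SFIH (-0.38, 0.42 and up to 0.76 likewise), Ccng1 for the antibody (-0.14, 0.38 and up to 0.55 likewise) and Mdm2 in Comb against SFIH (-0.068 with no TMM scaling, 0.24 with it). By DESeq2, genes past an adjusted p numbered 2056 in Comb against Con, 2 in SFIH against Con, 2 in PD against Con, 399 in Comb against PD, 1190 in Comb against SFIH, 1254 for the antibody, 226 for SFIH and 1 for the interaction, where edgeR called 0. Leaving out 1 tumor, edgeR called 0 to 3903 in Comb against Con (6 without Comb replicate 3), 0 to 2062 against PD, 0 to 3084 against SFIH, 0 to 2340 for the antibody (8 without Comb replicate 3) and 0 to 236 for SFIH, the highest each time without Comb replicate 1. Members past it then ranged over 0 to 3, 0 to 2, 0 to 4, 0 to 2 and 0 to 1 in the same order. Members past the unadjusted p, leaving out 1 tumor, ranged over 0 to 2 in SFIH against Con (0.903% to 7.51% of all genes), 0 to 3 in Comb against Con (17.1% to 43.3%), 0 to 3 against PD (8.43% to 36.7%), 0 to 4 against SFIH (10.5% to 39.2%), 0 to 3 for the antibody (14.5% to 34.2%), 0 to 2 for SFIH (9.11% to 29.2%) and 0 to 4 for the interaction (1.24% to 17.1%). Fitting the compared groups alone gave 1 in SFIH against Con (11% of all genes) and 0 in each Comb comparison (4.96% to 12.8%). DESeq2 gave 2 in Comb against Con (22.5% of 19008 genes) and 1 each for the antibody (16.9%), SFIH (13.7%) and the interaction (3.8%). In Comb against PD, a mean of 50 counts or more gave 1 (19.7% of all genes) and upper-quartile scaling 1 (18%). In Comb against SFIH no TMM scaling gave 1 (18.8%). That member was lower, and Ccng1 and Trp53inp1, higher in the main fit, did not pass. The replicate numbers were not taken as pairs in the main fit. With a replicate block 0 members passed in Comb against Con (21.8% of all genes), 1 against PD (13.2%) and 0 against SFIH (15.7%). The r of Trp53 with Trp53inp1 ranged from -0.80 to -0.45 when 1 tumor was left out. Of 80 group levels 4 moved by over 1 SD. Depth limits Sesn2 in Comb, where 2 tumors held 1 and 0 counts.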
